A study of Mus musculus with 6 samples.

Results

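The genes described are 39 genes of the skeletal muscle sarcomere, of calcium release in muscle, and of muscle energy supply. They were chosen by name, as a fixed list of symbols, with earlier results of these data known. All 39 were found among the 54385 gene rows of the deposited table of estimated counts. Polyadenylated RNA was sequenced from brown fat of C57BL/6N mice aged 20 weeks and kept on chow. One group was ADCY3∆AT (3 libraries), which lacks the form of adenylyl cyclase 3 that the series calls Adcy3-AT, and the other was WT, labelled wt/wt (3 libraries). The sample labels place the fat between the shoulder blades, while the design text of the series names the inguinal region. No label says whether the replicates of a genotype were separate mice, so p-values measure the spread between libraries, which may be technical.

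Muscle contracts when myosin heads of the thick filament pull on actin of the thin filament, and troponin and tropomyosin allow this once calcium is released from the sarcoplasmic reticulum. Fast and slow fibres use different genes for many of these parts. Brown fat is the heat-producing fat of mammals, and in the mouse the brown adipocytes of the back share a precursor lineage with back muscle.

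Library totals were 14799779 to 19592156 estimated counts in ADCY3∆AT and 13758492 to 17489589 in WT. Levels are given as CPM, the counts of a gene per 1000000 counts of the library, scaled by trimmed mean of M-values. The row of Adcy3 held 167, 195 and 240 CPM in the ADCY3∆AT libraries and 248, 209 and 166 CPM in the WT libraries. A further row of the table, ENSMUSG66666620654, has no symbol, and its last digits are those of the Adcy3 identifier. It held 1.27, 0 and 0 CPM in ADCY3∆AT and 215, 197 and 118 CPM in WT, with no overlap between the groups. Ucp1, the uncoupling protein that defines brown adipocytes, held 4030 to 4490 CPM in ADCY3∆AT and 3680 to 5430 CPM in WT. The 12 brown adipocyte genes listed summed to 15700 to 16500 CPM in ADCY3∆AT and 17500 to 17800 CPM in WT, and 0 of the 12 were called by edgeR (1 had an unadjusted p under 0.05, as had 22.6% of all tested genes). The WT libraries stood apart from each other in muscle RNA: the 39 genes summed to 136, 129 and 132 CPM in the ADCY3∆AT libraries, and to 162, 282 and 1070 CPM in WT replicates 1, 2 and 3. The 9 genes called below are therefore also given without WT replicate 3.

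The genes fell into 4 classes by a rule on their levels, which gives a description and no test. In 23 genes the mean of the ADCY3∆AT libraries was under 5% of the highest WT library, and these are said to follow the common muscle level. In 5 genes it was 50% or more, and these are called steady, while 6 genes lay between and 5 stayed under 1 CPM in every library. To follow the common level here means to meet the limit of 5% alone. Myh1 met it but was highest in WT replicate 2. Myh2 met it too, though its value in WT replicate 1 lay within those of ADCY3∆AT. Mylpf lay just inside the lower limit at 4.20%, with Neb at 7.76% just outside it. Casq2 lay just inside the upper limit at 50.1%, with Actn2 at 37.8% just outside it. Without WT replicate 3 the classes held 15, 8, 6 and 10 genes in the same order.

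Promoter letters are shown for Myh4, Acta1 and Atp2a1, of the thick filament, thin filament and calcium pump, which follow the common level. Myh1 is shown as a gene of that class whose highest library was WT replicate 2. The 2 steady genes with the highest levels, Myl1 and Des, are shown as well. Each run holds the 250 bases before the transcription start in RefSeq (build GRCm38.p6), read 5′ to 3′ on the strand of the gene. Capitals mark the E-box CANNTG, the MEF2 site, the CArG box and TATAAA, on either strand.
Myh4 (chr11:67237562-67237811, plus strand): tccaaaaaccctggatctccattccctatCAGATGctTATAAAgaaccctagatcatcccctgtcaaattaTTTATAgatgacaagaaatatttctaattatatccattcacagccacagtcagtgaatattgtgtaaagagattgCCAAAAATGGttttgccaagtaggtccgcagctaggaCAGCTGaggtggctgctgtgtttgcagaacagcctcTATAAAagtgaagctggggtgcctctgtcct
Acta1 (chr8:123894776-123895025, minus strand): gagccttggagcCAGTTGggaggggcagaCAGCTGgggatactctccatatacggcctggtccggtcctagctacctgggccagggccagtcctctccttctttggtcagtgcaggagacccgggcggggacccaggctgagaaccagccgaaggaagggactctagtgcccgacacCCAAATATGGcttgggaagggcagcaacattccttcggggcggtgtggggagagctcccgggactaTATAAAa
Atp2a1 (chr7:126463074-126463323, minus strand): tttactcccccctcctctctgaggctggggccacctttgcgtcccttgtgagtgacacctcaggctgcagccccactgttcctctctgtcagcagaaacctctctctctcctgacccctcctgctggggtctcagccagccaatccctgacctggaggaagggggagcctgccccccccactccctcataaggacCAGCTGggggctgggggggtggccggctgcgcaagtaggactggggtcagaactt
Myh1 (chr11:67199852-67200101, plus strand): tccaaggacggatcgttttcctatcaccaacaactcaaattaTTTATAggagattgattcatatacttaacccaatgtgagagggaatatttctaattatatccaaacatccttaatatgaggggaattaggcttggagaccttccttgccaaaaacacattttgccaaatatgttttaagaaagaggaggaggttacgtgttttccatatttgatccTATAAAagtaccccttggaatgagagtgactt
Myl1 (chr1:66945057-66945306, minus strand): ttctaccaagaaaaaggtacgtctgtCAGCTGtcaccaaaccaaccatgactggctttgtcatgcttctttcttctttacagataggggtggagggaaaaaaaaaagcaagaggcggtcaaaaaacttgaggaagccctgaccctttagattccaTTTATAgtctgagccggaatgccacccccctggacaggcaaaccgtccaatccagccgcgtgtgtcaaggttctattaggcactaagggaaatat
Des (chr1:75360042-75360291, plus strand): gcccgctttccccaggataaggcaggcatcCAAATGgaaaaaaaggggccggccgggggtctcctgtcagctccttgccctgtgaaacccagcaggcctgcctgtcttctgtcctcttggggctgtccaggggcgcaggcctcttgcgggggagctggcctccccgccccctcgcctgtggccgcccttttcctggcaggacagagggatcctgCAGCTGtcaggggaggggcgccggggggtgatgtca
RefSeq promoters were matched for 31 of the 39 genes, in 38 windows since some genes have more than 1 start. The E-box CANNTG, the letters bound by MyoD-type muscle regulators, stood in 32 of the 38 windows and in 66.2% of all 32851 windows of the same length. Its form CAGCTG, which is contained in CANNTG and reads the same on both strands, stood in 16 of the 38 windows and in 13% of all windows. Counted by gene, with any of its windows, it stood in 8 of 16 genes that follow the common level, 2 of 5 intermediate, 2 of 5 steady and 2 of 5 low genes. Of the runs above, those of Myh4, Acta1, Atp2a1, Myl1 and Des hold it, and that of Myh1 does not. A CArG box, the site of serum response factor, was found in 5 of the 38 windows, of Acta1, Myh4, Ldb3 and Myl3, against 1.47% of all windows. A MEF2 site was found in 2 windows, of Ttn and Xirp2, against 0.508% of all windows. TATAAA was found in 7 of the 38, against 12.4% of all windows. These matches describe letters in a window and not bound sites.

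The first comparison asks how the 39 genes differ in ADCY3∆AT brown fat from WT brown fat. Of 12 fast-fibre genes, 11 were under 1 CPM in every ADCY3∆AT library and had higher means in WT, at levels that differed widely between the WT libraries, while Myl1 was at 43.6 CPM or more in all 6 libraries. By edgeR's quasi-likelihood test over all 14332 genes that passed the filter on low counts, 9 of the 25 genes of the list that were tested fell in ADCY3∆AT (adjusted p under 0.05, Benjamini-Hochberg over all tested genes). These were Acta1, Myh4, Ckm, Mb, Tnnt3, Tnni2, Actn3, Atp2a1 and Mybpc2, and 0 rose (0 also by DESeq2, by limma-voom and at an unadjusted p under 0.05). Over all tested genes 1.67% were called lower and 2.63% higher, 4.3% in all. The whole-table counts were 377 higher and 239 lower, and 282 higher and 274 lower with upper-quartile scaling. The median log2 fold change was -4.46 over the 25 tested genes of the list and -0.01 over all tested genes. Since the list was chosen with earlier results of these data known, such contrasts with all tested genes may in part be set by the choice. The other 14 genes did not pass the filter, and a gene that passed only through its WT libraries had to differ, so these counts describe the tested genes alone. In 25 of the 39 genes every ADCY3∆AT library lay below every WT library, and in 17 of the 25 tested ones, while 13.9% of all tested genes did so. The calls rest on few libraries. Leaving out WT replicate 3 gave 6 calls by edgeR (0.748% of all genes called lower), leaving out WT replicate 2 gave 1, Myh4 (0.755%), and leaving out WT replicate 1 gave 19 (0.52%). The calls of Ckm, Actn3 and Mb ended without WT replicate 3. Leaving out ADCY3∆AT replicate 1, 2 or 3 gave 0 calls each (1.1%, 0.58% and 0.746% of all genes called lower), with 23 or 24 genes of the list lower at an unadjusted p under 0.05. The DESeq2 Wald test called 17 of 23 lower (3.05% of all genes), limma-voom 0 of 25 (1.42% of all genes, with 6 of the list lower at an unadjusted p under 0.05) and robust quasi-likelihood 1. In bulk tissue, fewer cells of a type and less RNA per cell cannot be told apart.

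**Figure D1:**
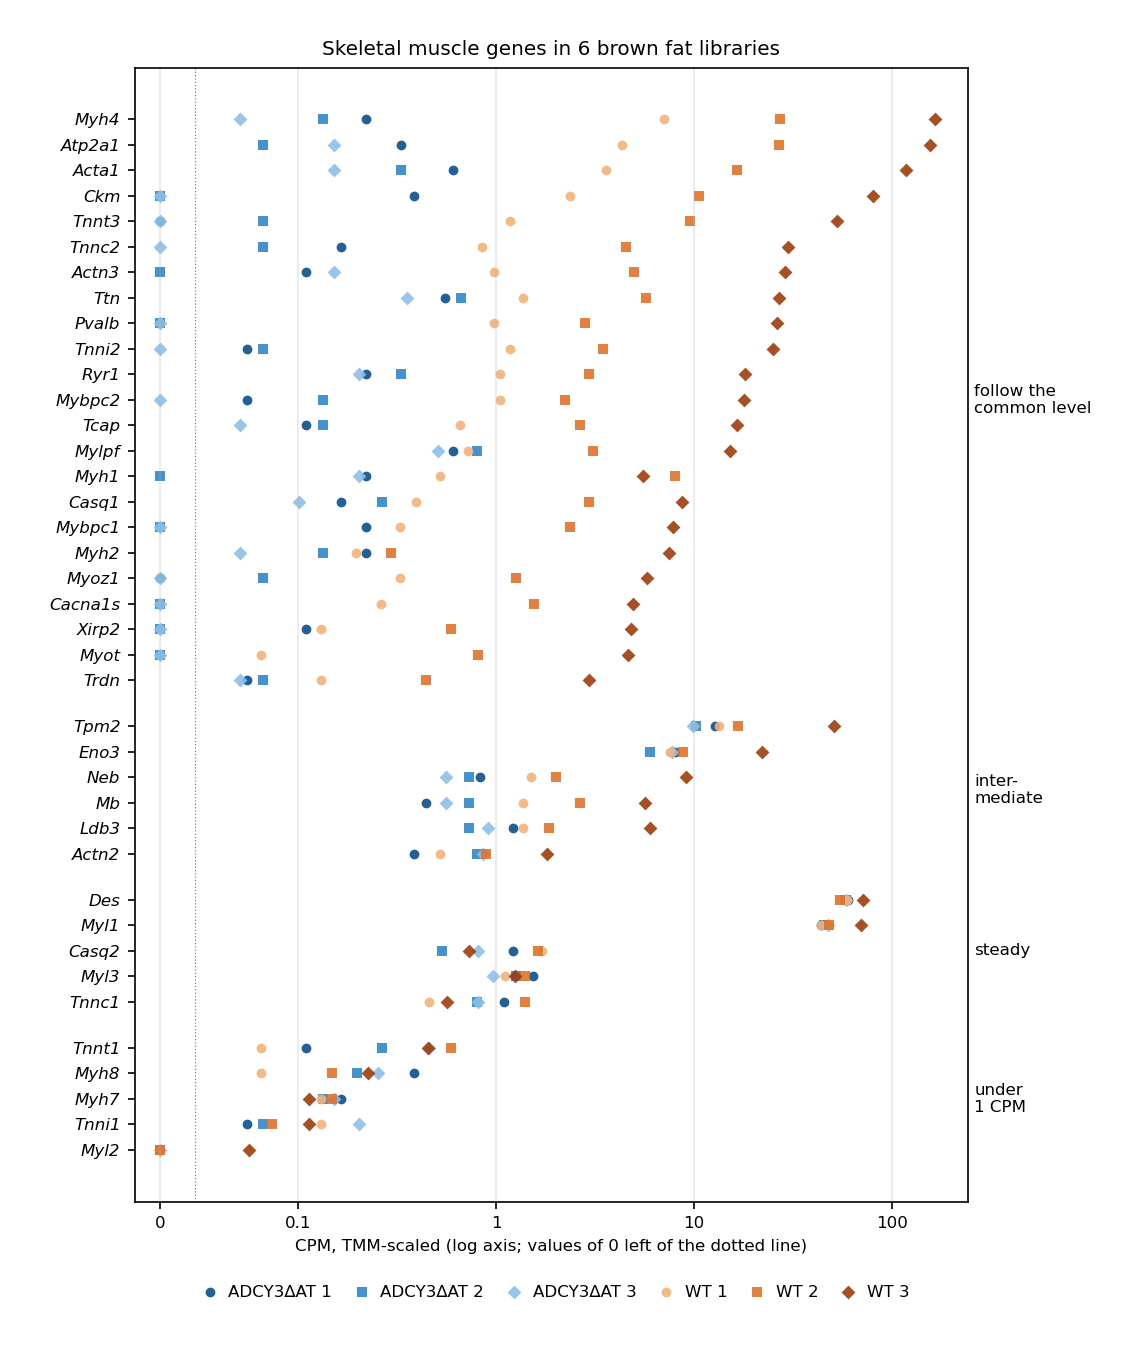
Level of each of the 39 genes (rows, grouped by class) in CPM on a log axis, with 1 point per library, ADCY3∆AT in blues and WT in oranges; values of 0 stand left of the dotted line. In the class that follows the common level WT replicate 3 is the highest library for 22 of 23 genes, WT replicate 1 is the lowest WT library for all 23, and the ADCY3∆AT points stay under 1 CPM.

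Among the thin filament genes, Acta1 (ENSMUSG00000031972, chromosome 8, 123891769 to 123894751, minus strand, GRCm38), the skeletal muscle actin, held 0.605, 0.332 and 0.152 CPM in ADCY3∆AT and 3.59, 16.5 and 117 CPM in WT. The groups did not overlap, and WT replicate 3 was far above the other WT libraries. Summed over libraries, 19 counts stood against 2362, which is 141-fold lower in ADCY3∆AT (95% counting interval 90.3 to 235). The fitted log2 fold change was -6.98 (SE 1.52, edgeR adjusted p = 0.0440), and it was -4.76 without WT replicate 3 (adjusted p = 0.0355). The exact permutation p was 0.1, the smallest that 3 against 3 libraries allow. The row of Gm20388, which overlaps Acta1 on the other strand, held 0 CPM in each ADCY3∆AT library and 7.31, 0 and 14.9 CPM in WT. Tpm2, the beta form of tropomyosin, held 12.8, 10.2 and 9.82 CPM in ADCY3∆AT and 13.3, 16.6 and 50.8 CPM in WT. It had a base level in ADCY3∆AT close to WT replicate 1, and its log2 fold change of -1.31 (SE 0.46) did not pass the test (edgeR adjusted p = 0.141).

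The troponins make the thin filament sensitive to calcium. Tnnt3, the fast troponin T, held 0, 0.0664 and 0 CPM in ADCY3∆AT and 1.18, 9.53 and 52.6 CPM in WT. It rested on 1 count in ADCY3∆AT against 1080 in WT, a ratio of 1230-fold lower with a counting interval of 220 to 48600 (edgeR adjusted p = 0.0428). Its fitted log2 fold change of -9.66 was -7.64 without WT replicate 3 (adjusted p = 0.0438). Tnni2, the fast troponin I, held 0.055, 0.0664 and 0 CPM in ADCY3∆AT and 1.18, 3.47 and 25.1 CPM in WT (edgeR adjusted p = 0.0415). Its fitted log2 fold change of -7.80 was -5.67 without WT replicate 3 (adjusted p = 0.0275). Both troponins fell, with no overlap between the genotypes. Tnnc2, the fast troponin C, held 0.165, 0.0664 and 0 CPM in ADCY3∆AT and 0.849, 4.51 and 29.8 CPM in WT, and missed the threshold (edgeR adjusted p = 0.0503). The slow Tnnt1 and Tnni1 reached at most 0.591 CPM in a library and did not pass the filter. The slow troponin C, Tnnc1, held 1.1, 0.797 and 0.810 CPM in ADCY3∆AT and 0.457, 1.40 and 0.564 CPM in WT. Its libraries overlapped, with an edgeR adjusted p of 0.845 and a log2 fold change of 0.19 (SE 0.45, interval -0.84 to 1.23). Tnnc1 overlaps Nisch on the opposite strand, which held 154 to 177 CPM in the 6 libraries, and without stated strand the reads of both rows cannot be told apart.

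In the thick filament, Myh4 (ENSMUSG00000057003, chromosome 11, 67238029 to 67260446, plus strand), the IIb myosin heavy chain of the fastest fibres, held 0.220, 0.133 and 0.0506 CPM in ADCY3∆AT and 7.05, 27.2 and 165 CPM in WT. The groups did not overlap, and 7 counts stood against 3400 (552-fold lower in ADCY3∆AT, counting interval 268 to 1370). Its fitted log2 fold change was -8.90 (SE 1.65, edgeR adjusted p = 0.0271), and -6.93 without WT replicate 3 (adjusted p = 0.0163). The neighbouring Myh1, the IIx chain, held 0.220, 0 and 0.202 CPM in ADCY3∆AT and 0.522, 7.98 and 5.52 CPM in WT. Its highest library was WT replicate 2, unlike the other 22 genes that follow the common level. Myh2, the IIa chain, held 0.220, 0.133 and 0.0506 CPM in ADCY3∆AT and 0.196, 0.296 and 7.5 CPM in WT. WT replicate 1 lay within the ADCY3∆AT values there. Neither Myh1 nor Myh2 passed the filter. The slow chain Myh7 (0.133 to 0.165 CPM in ADCY3∆AT and 0.113 to 0.148 CPM in WT) and the perinatal chain Myh8 (0.199 to 0.385 and 0.0653 to 0.225 CPM) stayed near 0 throughout. These chains are close copies of each other, so how the authors' estimated counts divide reads between them is uncertain.

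Of the myosin light chains, 1 followed the common level. Mylpf, the fast regulatory chain, held 0.605, 0.797 and 0.506 CPM in ADCY3∆AT and 0.718, 3.10 and 15.2 CPM in WT, with WT replicate 1 among the ADCY3∆AT values. It did not pass the test (log2 fold change -3.34, SE 0.98, edgeR adjusted p = 0.0946). Myl2, the slow regulatory chain, had 1 count in the 6 libraries together. Myl3, the slow essential chain, held 1.54, 1.26 and 0.962 CPM in ADCY3∆AT and 1.11, 1.40 and 1.24 CPM in WT (log2 fold change 0.00, SE 0.29, 95% interval -0.66 to 0.66, edgeR adjusted p = 0.996). It overlaps Pth1r on the opposite strand, which held 29.7 to 44.6 CPM in ADCY3∆AT and 28.5 to 36.8 CPM in WT.

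Mybpc2, the fast myosin-binding protein C, held 0.055, 0.133 and 0 CPM in ADCY3∆AT and 1.04, 2.22 and 17.8 CPM in WT. It fell, with 3 counts against 361 (137-fold lower, counting interval 46.5 to 667, edgeR adjusted p = 0.0452). Its fitted log2 fold change of -6.79 was -4.65 without WT replicate 3 (adjusted p = 0.0369). Mybpc1, counted here as its slow form, held 0.220, 0 and 0 CPM in ADCY3∆AT and 0.326, 2.36 and 7.78 CPM in WT, and did not pass the filter. Ttn, the giant spring protein of the sarcomere, held 0.550, 0.664 and 0.354 CPM in ADCY3∆AT and 1.37, 5.69 and 26.8 CPM in WT. The libraries did not overlap, but its adjusted p was 0.0562 by edgeR.

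At the Z disc, which anchors the thin filaments, Actn3, the fast-fibre actinin, held 0.110, 0 and 0.152 CPM in ADCY3∆AT and 0.979, 4.95 and 28.6 CPM in WT. It fell, with 5 counts against 590 (134-fold lower, counting interval 57.2 to 415, edgeR adjusted p = 0.0456). Of the 590 counts 508 came from WT replicate 3, and without that library the call ended (log2 fold change -6.85 with it and -4.86 without it, adjusted p = 0.0546). Actn2, the actinin of all fibres and heart, held 0.385, 0.797 and 0.860 CPM in ADCY3∆AT and 0.522, 0.887 and 1.80 CPM in WT, and its libraries overlapped (edgeR adjusted p = 0.477). Tcap, which caps titin at the Z disc, held 0.110, 0.133 and 0.0506 CPM in ADCY3∆AT and 0.653, 2.66 and 16.4 CPM in WT and missed the threshold (edgeR adjusted p = 0.0506). Neb, which runs along the thin filament, averaged 0.704 ± 0.136 CPM in ADCY3∆AT and 4.19 ± 4.24 CPM in WT (SD, n = 3 each; edgeR adjusted p = 0.0789). Ldb3, a binding partner of actinin, averaged 0.951 ± 0.243 CPM in ADCY3∆AT and 3.06 ± 2.53 CPM in WT (SD, n = 3 each; edgeR adjusted p = 0.126). The Z disc genes Myoz1, Myot and Xirp2 did not pass the filter. Myot was at 0 in each ADCY3∆AT library and held 0.0653, 0.813 and 4.62 CPM in WT. Its WT mean was 10.7 times a floor of 3 counts per ADCY3∆AT library, and 82 of its 94 WT counts came from WT replicate 3. With 1 count in WT replicate 1, no lower level is shown against that library. Myoz1 reached 5.81 CPM and Xirp2 4.79 CPM in WT replicate 3, with 1 and 2 counts in ADCY3∆AT.

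Of the 7 calcium handling genes, 6 were highest in WT replicate 3, and Casq2 was not. Atp2a1 (ENSMUSG00000030730, chromosome 7, 126445858 to 126463108, minus strand), the fast-fibre pump that returns calcium to the sarcoplasmic reticulum, held 0.330, 0.0664 and 0.152 CPM in ADCY3∆AT and 4.31, 26.8 and 156 CPM in WT. It fell, with 10 counts against 3204 (364-fold lower, counting interval 198 to 761, log2 fold change -8.33, SE 1.67, edgeR adjusted p = 0.0346). Its value without WT replicate 3 was -6.30 (adjusted p = 0.0299). Ryr1, the calcium release channel, held 0.220, 0.332 and 0.202 CPM in ADCY3∆AT and 1.04, 2.96 and 18.1 CPM in WT, and missed the threshold (edgeR adjusted p = 0.0538). Cacna1s, the voltage sensor that opens it, was at 0 in each ADCY3∆AT library and held 0.261, 1.55 and 4.90 CPM in WT. Its WT mean was 13 times the floor, with 4 counts in WT replicate 1 and 87 of 112 in WT replicate 3. Pvalb, the calcium buffer of fast fibres, was at 0 in each ADCY3∆AT library, where 0 counts allow up to 0.165, 0.199 and 0.152 CPM, and held 0.979, 2.81 and 26.2 CPM in WT. Its WT mean was 58.1 times that floor, with 465 of 518 counts from WT replicate 3, and its edgeR adjusted p was 0.0827.
Casq1, the calsequestrin that stores calcium in fast fibres, held 0.165, 0.266 and 0.101 CPM in ADCY3∆AT and 0.392, 2.96 and 8.68 CPM in WT. Trdn, triadin, which ties calsequestrin to the release channel, held 0.0506 to 0.0664 CPM in ADCY3∆AT and 0.131, 0.443 and 2.93 CPM in WT. Neither passed the filter. Casq2, the slow-fibre and cardiac calsequestrin, held 1.21, 0.531 and 0.810 CPM in ADCY3∆AT and 1.70, 1.63 and 0.733 CPM in WT. It was lowest among the WT libraries in replicate 3, where the fast genes were highest (log2 fold change -0.63, SE 0.43, edgeR adjusted p = 0.424).

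Of the energy and oxygen genes, Ckm, the muscle creatine kinase, held 0.385, 0 and 0 CPM in ADCY3∆AT and 2.35, 10.6 and 80.4 CPM in WT. It fell, with 7 counts against 1606 (261-fold lower, counting interval 126 to 650, edgeR adjusted p = 0.0473). Of the 1606 counts 1427 came from WT replicate 3. The call ended without that library (log2 fold change -7.82 with it and -5.52 without it, adjusted p = 0.0520) and with upper-quartile factors (adjusted p = 0.0509). Mb, myoglobin, which holds oxygen, also fell. It held 0.440, 0.731 and 0.557 CPM in ADCY3∆AT and 1.37, 2.66 and 5.64 CPM in WT (5.95-fold lower, counting interval 4.01 to 9.11, log2 fold change -2.50, SE 0.54, edgeR adjusted p = 0.0422). Its call ended without WT replicate 3 (log2 fold change -1.80, adjusted p = 0.0851). Eno3, the muscle enolase, held 8.04, 5.98 and 7.69 CPM in ADCY3∆AT and 7.51, 8.79 and 22.1 CPM in WT, and overlapped between the genotypes (log2 fold change -0.83, SE 0.38, edgeR adjusted p = 0.242).

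The second question is which of these genes share one muscle level per library. Summed over the 23 genes that follow it, the level was 4.4, 3.32 and 2.02 CPM in ADCY3∆AT and 29.6, 141 and 828 CPM in WT, from 80, 50 and 40 counts and from 454, 1911 and 14694 counts. Relative to WT replicate 3 this was 0.532%, 0.401% and 0.245% in the ADCY3∆AT libraries and 3.58% and 17.1% in WT replicates 1 and 2. For each gene the excess of a WT library over the ADCY3∆AT mean was taken as a share of the excess summed over the 3 WT libraries. The median gene had 2.47%, 13.6% and 83.9% of its excess in WT replicates 1, 2 and 3. The shares in WT replicate 3 ran from 39.6% (Myh1) to 97.1% (Myh2). The genes were chosen for low ADCY3∆AT values relative to the highest WT library, which was replicate 3 for 22 of 23, so a large share in that library is in part set by the choice.

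The ratio of WT replicate 3 to WT replicate 2 had a median of 6.06 over these 23 genes, and the 95% counting interval held that median in 15 of them. Acta1 (7.13), Ckm (7.61), Pvalb (9.33) and Myh2 (25.4) lay above it. Casq1 (2.94), Cacna1s (3.16), Mybpc1 (3.29) and Myh1 (0.692, interval 0.521 to 0.918) lay below it. These intervals cover counting error only, between 2 single libraries, and the libraries have no replicate of their own.

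**Figure D2:**
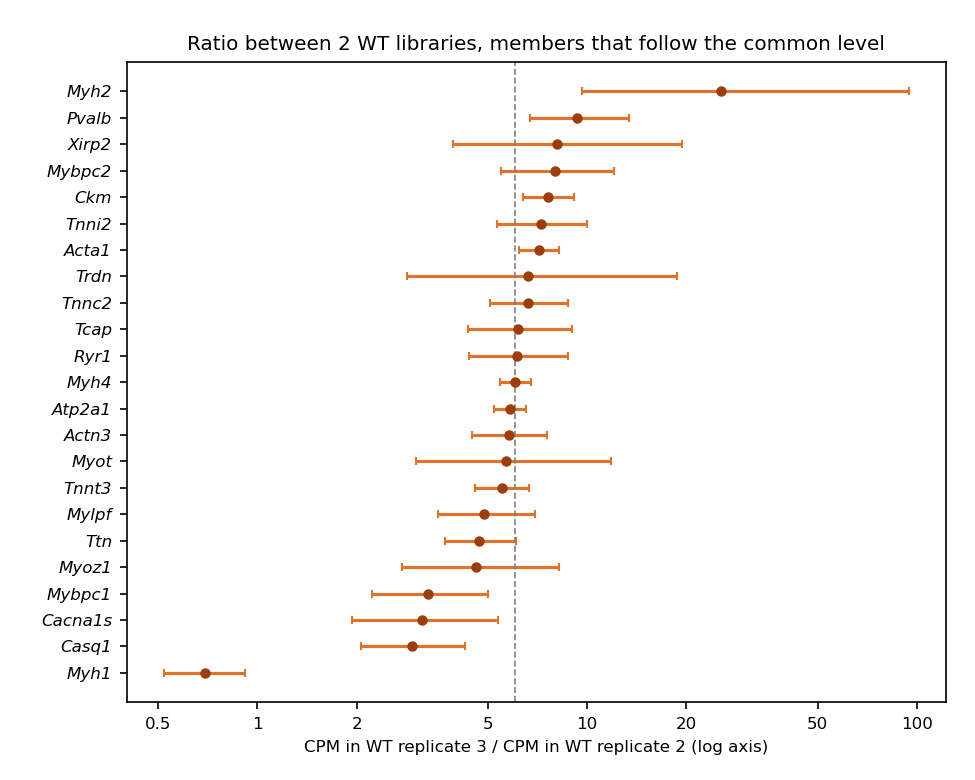
Ratio of CPM in WT replicate 3 to CPM in WT replicate 2 (log axis) for the 23 genes that follow the common level, with bars for 95% counting intervals and a dashed line at the median of 6.06. Myh1 is the 1 gene under a ratio of 1, and Myh2 has the highest ratio at 25.4.

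A list of 60 other skeletal muscle genes summed to 866, 876 and 859 CPM in ADCY3∆AT and 841, 872 and 1040 CPM in WT. By the same limits 15 of them met the limit for following the common level, 17 were intermediate, 14 steady and 14 low. That limit does not test their order over the WT libraries. The 15 included Eef1a2, a translation factor of muscle and nerve, and Nrap, an anchor of actin filaments. These 15 summed to 0.880, 0.797 and 0.758 CPM in ADCY3∆AT and 1.89, 8.65 and 47.1 CPM in WT. Relative to WT replicate 3 this was 1.87%, 1.69% and 1.61% in ADCY3∆AT and 4.02% and 18.4% in WT replicates 1 and 2, beside 3.58% and 17.1% for the 23 genes. The limit that picks the 15 also sets their low ADCY3∆AT values, so they lend no support to the 23. Their sum was added after the data were seen, since Cox8b took 69.4% to 79.5% of the sum over all 60. Cox8b, a respiratory chain subunit of muscle and brown fat, held 682, 688 and 683 CPM in ADCY3∆AT and 651, 645 and 721 CPM in WT. By edgeR 0 of the 22 tested genes of that list were called (DESeq2 called 4 lower and 1 higher, limma-voom 0), and their median log2 fold change was -0.41. An unadjusted edgeR p under 0.05 was found in 11 of the 22, and in 22.6% of all tested genes. Pygm, muscle glycogen phosphorylase, was among the intermediate ones at 4.02, 3.99 and 3.64 CPM in ADCY3∆AT and 5.22, 7.83 and 32.7 CPM in WT.

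Markers of muscle precursors and of heart were at low levels. Myog was at 0 in all 6 libraries, Myod1 at 0 but for 0.0564 CPM in WT replicate 3, and Pax7 and Myf5 reached at most 0.0664 CPM. Others of that list had their highest value in WT replicate 3: Myf6, a regulator that fibres keep making, at 0.055, 0 and 0 CPM in ADCY3∆AT and 0.0653, 0.0739 and 0.564 CPM in WT, Vgll2 at 0.169 CPM there and Cdh15 at 0.169 CPM there and 0 elsewhere. Of the defining heart genes, Myl7 was at 0 throughout, and Myh6 and Nppa reached at most 0.165 CPM, while Myl4 held 2.28 to 2.97 CPM in ADCY3∆AT and 2.61 to 3.33 CPM in WT, and Ryr2 0.716 to 1.32 CPM in ADCY3∆AT and 0.588 to 1.85 CPM in WT. Of 15 muscle regulators and satellite cell genes, 5 were tested and 0 called by edgeR (2 had an unadjusted p under 0.05, beside 22.6% of all tested genes). Of 14 cardiac and developmental forms 2 were tested and 0 called (0 at an unadjusted p under 0.05). Whether muscle fibres were collected with the fat was not tested.

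The third comparison separates genes with a level of their own in brown fat from the common muscle level. Des, the intermediate filament of muscle cells, and Myl1, the fast essential light chain, held most of the muscle-list RNA in ADCY3∆AT. Des held 60.1, 58.7 and 58.1 CPM in ADCY3∆AT and 59.3, 54.5 and 71.5 CPM in WT. Its libraries overlapped, and it did not pass the test (edgeR adjusted p = 0.734, log2 fold change -0.07, SE 0.10, interval -0.30 to 0.16). Myl1 held 43.6, 45.0 and 47.4 CPM in ADCY3∆AT and 43.6, 47.7 and 69.3 CPM in WT. It overlapped too, with WT replicate 3 above the rest (log2 fold change -0.24, SE 0.16, 95% interval -0.61 to 0.12, edgeR adjusted p = 0.410). Without WT replicate 3 the values were 0.05 for Des and -0.01 for Myl1. Per kilobase of exon, Myl1 was the highest of the 39 genes in each ADCY3∆AT library (21, 21.7 and 22.8 CPM per kilobase) and Des the next (16, 15.6 and 15.5). In WT replicate 3 the order was Acta1 (76.5 CPM per kilobase), Atp2a1 (45.0), Tnnc2 (37.2), Myl1 (33.4) and Tnnt3 (33.2).

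The intermediate genes Tpm2, Eno3, Mb, Ldb3, Neb and Actn2 had both a base level in ADCY3∆AT and a rise in WT replicate 3. For Mb, Actn2 and Neb the base level did not set the class apart. They averaged 0.576, 0.681 and 0.704 CPM in ADCY3∆AT, beside 0.636 for Mylpf and 0.523 for Ttn, which follow the common level. The class also depends on the highest WT library, at 15.2 CPM for Mylpf and 5.64 CPM for Mb. The excess of Tpm2 over its ADCY3∆AT mean was divided 5%, 11.9% and 83.1% among WT replicates 1 to 3, that of Eno3 1.64%, 9.34% and 89.0%, and that of Ldb3 6.63%, 14.1% and 79.2%. Their shares in WT replicate 3 lie within the range of the 23 genes given above, whose ends are Myh1 and Myh2. Apart from Myh1 and Myh2 that range runs from 73.0% (Cacna1s) to 88.0% (Xirp2), and the share of Eno3 lies above it. In WT replicate 1 the shares of Tpm2, Ldb3, Neb (7.62%) and Mb lie above the highest of the 23, which is 4.71%. Mb was divided at 10%, 26.3% and 63.7%. Mb overlaps Apol6 on the opposite strand, which held 25.2 to 36.9 CPM in ADCY3∆AT and 33.5 to 36.0 CPM in WT. Without WT replicate 3 the log2 fold changes were -0.45 for Tpm2, -0.17 for Eno3 and -0.74 for Ldb3. Over the 5 steady and 6 intermediate genes together, levels summed to 131, 125 and 128 CPM in ADCY3∆AT and 132, 139 and 239 CPM in WT.

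**Figure D3:**
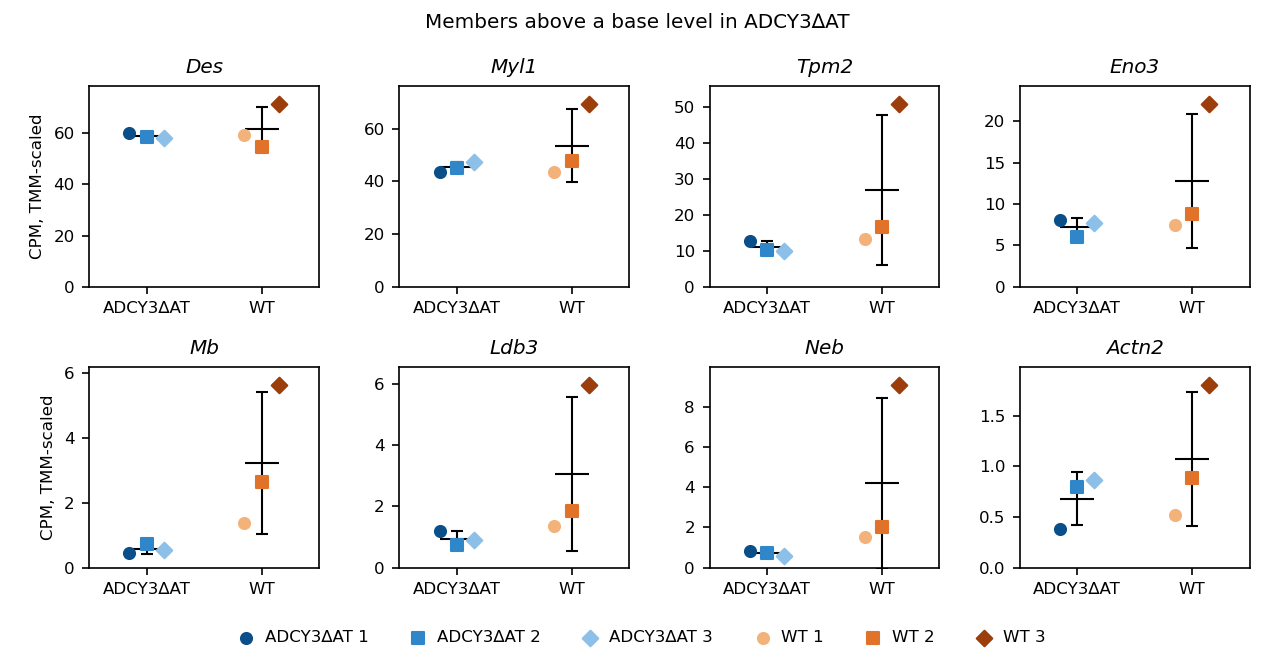
CPM of the 2 highest steady genes (Des, Myl1) and the 6 intermediate genes, with ADCY3∆AT left and WT right in each panel; points are libraries, the short line is the mean and the bar its SD (n = 3, for Neb in WT running below 0). Each gene has a level above 0 in all ADCY3∆AT libraries, and WT replicate 3 is the highest library in every panel.

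Many of these genes have widely expressed counterparts that build the actin and calcium systems of other cells. Of 23 listed, 0 fell and 1 rose in ADCY3∆AT by edgeR, where 4.3% of all tested genes were called in either direction. An unadjusted p under 0.05 was found in 8 of the 23, all but Tpm1 higher in ADCY3∆AT, and in 22.6% of all tested genes. The called gene, Pdlim1, an actinin-binding protein, averaged 8.95 CPM in ADCY3∆AT and 5.03 CPM in WT (log2 fold change 0.84, edgeR adjusted p = 0.0261). Tpm1, the alpha form of tropomyosin, averaged 40.2 CPM in ADCY3∆AT and 52.5 CPM in WT and did not pass the test. The 13 genes of smooth muscle and mural cells, which also make Des, summed to 659, 701 and 686 CPM in ADCY3∆AT and 638, 614 and 526 CPM in WT. Of these, 12 were tested and 0 called by edgeR (3 had an unadjusted p under 0.05, beside 22.6% of all tested genes).

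The fourth comparison sets fast against slow fibre forms. Of the 12 genes of fast fibres, 11 met the limit for following the common level and 1, Myl1, was steady. Of the 9 genes counted as slow forms, 1 met it (Mybpc1), 1 was intermediate (Actn2, which fast fibres also use), 3 were steady and 4 were low. Of the fast genes 6 of 9 tested fell, and of the slow genes 0 of 4 tested were called by edgeR (0 at an unadjusted p under 0.05). Whether fast and slow genes differ in response was not tested, since the classes rest on the same values.

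The share of the fast form in a pair ranged widely in the WT libraries. Per kilobase of exon, fast myosin (Myh1, Myh2 and Myh4) was 98.8%, 99.7% and 100% of the sum with Myh7 in WT replicates 1 to 3. In ADCY3∆AT this rested on 12, 4 and 6 fast counts. Tnnt3 was 96.2%, 95.7% and 99.4% of the sum with Tnnt1, and Tnni2 95.6%, 99.1% and 99.8% of that with Tnni1. The fast shares of troponin C and actinin were lower in every ADCY3∆AT library than in every WT library. So were those of myosin, troponin T, troponin I and the calcium pump, as point values. In ADCY3∆AT, Tnnt3 rested on 0, 1 and 0 counts and Tnni2 on 1, 1 and 0. The troponin I interval by counts was 1.26% to 98.7% in ADCY3∆AT replicates 1 and 2, overlapping every WT interval. The troponin T interval reached 84.2% in ADCY3∆AT replicate 1, and that of WT replicate 1 began at 74.0%. Myosin intervals also overlapped, at 51.9% to 95.7% in ADCY3∆AT replicate 1 and 94.2% to 99.8% in WT replicate 1. In ADCY3∆AT, Tnnc2 rested on 3, 1 and 0 counts and Actn3 on 2, 0 and 3, at or under the floor of 3 counts. By counts, the intervals for actinin overlapped between ADCY3∆AT replicate 1 (2.81% to 60.0%) and WT replicate 1 (42.7% to 83.6%). Tnnc2 was 16.3%, 9.78% and 0% of the sum with Tnnc1 in ADCY3∆AT and 70.7%, 80.7% and 98.6% in WT. Actn3 was 27.2%, 0% and 18.8% of the sum with Actn2 in ADCY3∆AT and 71.0%, 88.0% and 95.4% in WT. For Casq1 and Casq2 the libraries overlapped, with Casq1 at 16.1%, 41.2% and 14.9% of the sum in ADCY3∆AT and 24.4%, 71.8% and 94.3% in WT.
The calcium pumps showed a lower fast share in ADCY3∆AT against a high slow form. Atp2a2, the pump of slow fibres and of most other cells, held 231, 253 and 275 CPM in ADCY3∆AT and 235, 289 and 221 CPM in WT (log2 fold change 0.03, edgeR adjusted p = 0.902). Atp2a1 was 0.249%, 0.0458% and 0.0964% of the sum per kilobase in ADCY3∆AT and 3.11%, 14% and 55.4% in WT. The myosin-binding protein pair differed, with Mybpc2 at 80.0%, 54.0% and 74.1% of the sum with Mybpc1 in WT. In WT replicate 2 these 2 genes were near equal, on 30 counts of Mybpc2 against 32 of Mybpc1 (Mybpc2 at 35.5% to 61.4% by counts). Mybpc1, counted here as the slow form, itself met the limit for following the common level. The slow myosin Myh7 had 2 counts in that library.

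**Figure D4:**
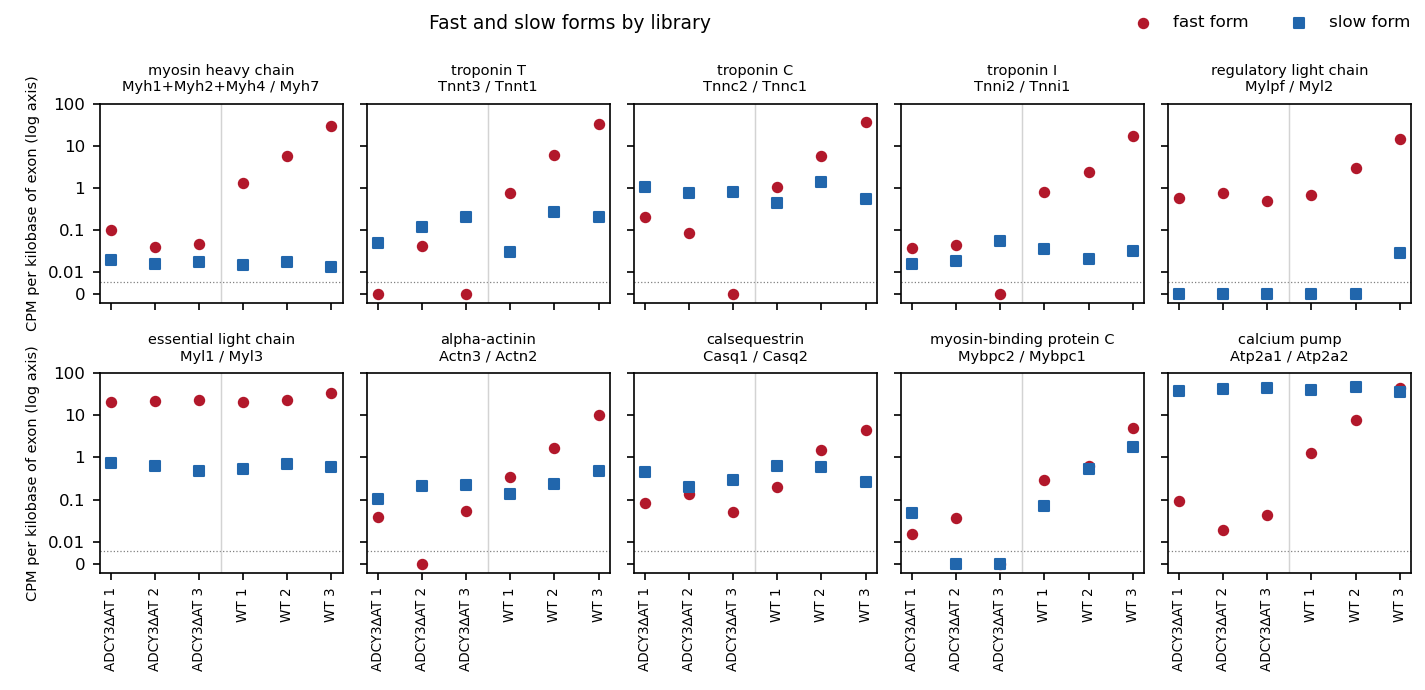
CPM per kilobase of exon (log axis, 0 below the dotted line) of the fast form (red circles) and slow form (blue squares) of 10 pairs, in the 3 ADCY3∆AT libraries at the left and the 3 WT libraries at the right of each panel. The fast form is highest in WT 3 in each panel, and in that of Myl1 the other WT libraries are close to ADCY3∆AT. Atp2a2 stays between 36.3 and 47.5 CPM per kilobase in all 6 libraries.

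The make-up of fast myosin differed between the WT libraries. Myh4 took 90.8%, 76.7% and 92.7% of the counts of Myh1, Myh2 and Myh4 in WT replicates 1, 2 and 3. Myh1 took 6.72% (exact 95% interval 2.95 to 12.8), 22.5% (18.8 to 26.5) and 3.11% (2.53 to 3.77). Myh2 took 2.52%, 0.833% and 4.22%. The interval of Myh1 in WT replicate 2 lay above those of both other WT libraries. The order by level per kilobase was Myh4, Myh1, Myh2 in WT replicates 1 and 2, and Myh4, Myh2, Myh1 in WT replicate 3. The intervals cover counting error only, and the division of reads among these close copies carries further error that was not measured.

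**Figure D5:**
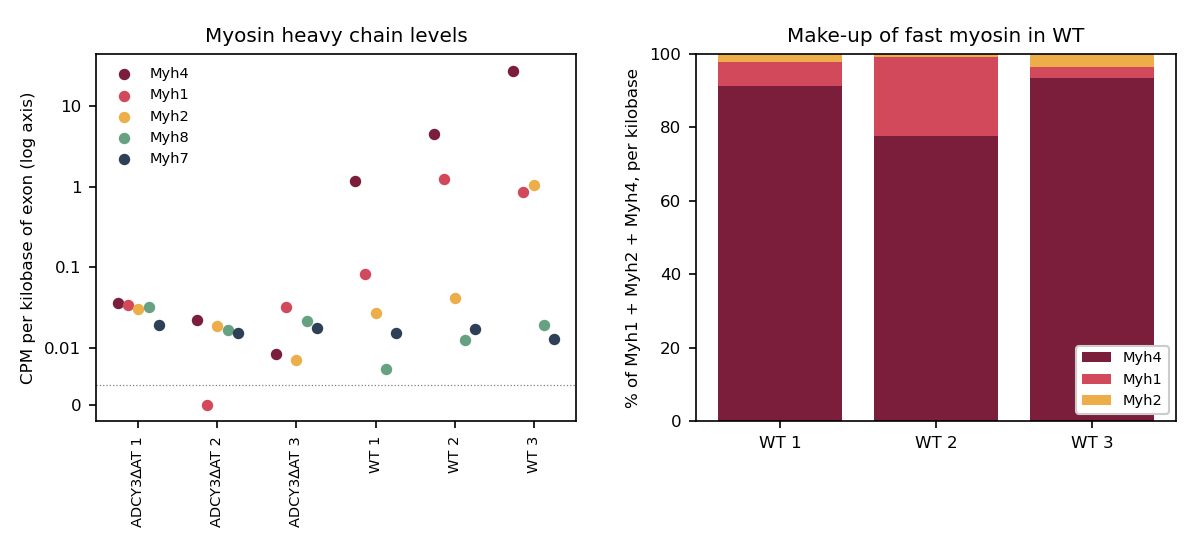
Left, CPM per kilobase of exon (log axis, 0 below the dotted line) of 5 myosin heavy chain genes in the 3 ADCY3∆AT and 3 WT libraries. Right, share of Myh4, Myh1 and Myh2 in their sum per kilobase in each WT library, with Myh1 at 21.6% in WT replicate 2 and 6.41% and 2.97% in WT replicates 1 and 3.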

How the data were processed

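Estimated counts for 54385 gene rows in 6 library columns were deposited by the authors in 1 table. Of its values above 0, 38.0% were whole within 0.0005. Salmon, StringTie and edgeR are named in the submitters' processing notes with build GRCm38, but no version or role. Per the labels' protocols, RNA was isolated with TRIzol and spin columns, and paired-end NEBNext Ultra II libraries were made. The sources used here do not state strand, so overlapping genes cannot be told apart. Symbols from the GENCODE annotation of GRCm38 were found for 54131 rows.

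Estimated counts were rounded to whole numbers and passed through filterByExpr with genotype as group (count minimum 10, total minimum 15), leaving 14332 genes. The comparison of genotypes used glmQLFTest of edgeR 4.0.16 (quasi-likelihood, two-sided; R 4.3.3) over all 6 libraries, with TMM scaling, no covariate and Benjamini-Hochberg adjustment over all tested genes, called under 0.05. A negative log2 fold change means lower in ADCY3∆AT. Single genes also had an exact two-sided permutation test over 10 divisions of the libraries, on log2(CPM + 0.5). Summed counts were compared as ratios per scaled library size with exact 95% intervals, and shares with Clopper-Pearson intervals. Both, like the floor of 3 counts (0.152 to 0.222 CPM per library), cover counting error only. Levels are per kilobase of exon where genes are compared. Replicates of a genotype differed beyond counting noise (chi-square per gene 6.34 to 26.6). Same-numbered libraries did not deviate together (correlations 0, -0.01 and -0.05), so the numbers were not taken as pairs.

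The genes, gene lists, class limits and the naming rule were chosen with earlier results of these data known. The naming rule takes all genes called, the 3 highest and 3 lowest of each class by WT mean, both genes of each of 10 fast and slow pairs, up to 3 genes of smallest p and the most abundant one of each other list, and the 10 genes whose pattern is most like the muscle level. Some named by it are given in counts only. Alternatives were DESeq2 1.42.0 factors and Wald test, upper-quartile factors, library size alone, limma-voom 3.58.1, robust quasi-likelihood, no filter, a filter of CPM above 1 in 3 libraries, the replicate number as a block, a threshold of 0.10, other class limits, and leaving out each library. The sum over 15 other muscle genes was added after the data were seen.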

Additional observations from a re-analysis of the deposited data

How the results depend on the processing

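The 9 genes of the list called lower became 10 with DESeq2 factors or library size alone, 8 with upper-quartile factors or the CPM filter, 12 with the replicate block, 17 of 23 with the DESeq2 Wald test, 0 with limma-voom (lowest adjusted p 0.0943), 1 with robust quasi-likelihood, 28 of 39 with no filter and 16 at a threshold of 0.10. With 1 library left out the count ran from 0 to 19. The count called higher was 0 under each of these. The replicate block, whose numbers pair no libraries here, gave 131 lower and 193 higher over all genes, against 239 and 377 without it. Over all genes the count called lower ran from 78 to 160 and the count called higher from 84 to 301 with 1 library left out. It was 395 lower and 598 higher with the Wald test, 747 and 1204 with no filter, and 565 and 810 at 0.10. With DESeq2 factors 244 genes were called lower, with library size alone 225, with upper-quartile factors 274 and with the CPM filter 244. Robust quasi-likelihood called 237 lower and limma-voom 204. With no filter the edgeR adjusted p of Acta1 was 1.62e-297, against 0.044 in the main fit, so the 28 calls of that fit are not comparable with the others. Signs turned in 3 steady genes near 0. With 1 library left out Des ran from -0.15 to 0.05 (positive without WT replicate 3), Tnnc1 from -0.08 to 0.81 (negative without WT replicate 1 or 3) and Myl3 from -0.17 to 0.17 (negative without ADCY3∆AT replicate 1 or WT replicate 1 or 3). Myl3 was -0.04 with upper-quartile factors, -0.02 with voom and -0.01 with the replicate block. The causes were not tested. In ADCY3∆AT the 23 genes rest on 40 to 80 counts per library, so differences among them there were not detectable at this depth.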

Other observations

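The limit of 5% was met by 20 of the 14332 tested genes, of which 14 were on the list and 6 in none of the lists. Of the 6, 4 did not share the order of the muscle genes. Gm16867 held 0, 0 and 0.253 CPM in ADCY3∆AT and 9.86, 8.2 and 8.4 CPM in WT. It overlaps Entpd4 on the opposite strand, which held 152, 177 and 198 CPM in ADCY3∆AT and 485, 465 and 424 CPM in WT. Without stated strand the reads of both rows cannot be told apart. Gm5512 was at 0 in each ADCY3∆AT library and held 9.01, 10.4 and 10.2 CPM in WT. Yy2 was at 0 in each ADCY3∆AT library and held 1.18, 2.29 and 1.01 CPM in WT. It overlaps Mbtps2 on the same strand, which held 8.97 to 9.19 CPM in ADCY3∆AT and 6.37 to 8.87 CPM in WT. The row ENSMUSG66666620654 held 1.27, 0 and 0 CPM in ADCY3∆AT and 215, 197 and 118 CPM in WT. Meeting the limit is thus not the same as following the muscle level. Slc22a12 held 0.220, 0.133 and 0.253 CPM in ADCY3∆AT and 0.784, 1.18 and 7.05 CPM in WT. Gm14964 held 0.660, 0.399 and 0.506 CPM in ADCY3∆AT and 0.784, 2.44 and 11.2 CPM in WT. Both lie on chromosome 19 and overlap Nrxn2 on its opposite strand, and Nrxn2 held 2.48, 1.53 and 2.33 CPM in ADCY3∆AT and 3.13, 4.06 and 23.9 CPM in WT. Their levels cannot be told apart without strand. Slc22a12 (edgeR adjusted p = 0.0622) and Gm14964 (0.0870) did not pass the test.

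Over the 6 libraries, the gene outside the lists most like the sum of the 60 other muscle genes was Rrp36 (Pearson r 0.990 on log2 values), at 17.4 to 18.3 CPM in ADCY3∆AT and 17.1 to 21 CPM in WT. That sum is mostly Cox8b. Against the 15 muscle genes that met the limit for the common level, the most alike were H2afv (0.994), Sumf2 (0.992) and Tenm4 (0.991). Cbr3, a carbonyl reductase (0.983), held 2.09, 1.86 and 1.82 CPM in ADCY3∆AT and 2.68, 3.84 and 10.2 CPM in WT. It did not pass the test (edgeR adjusted p = 0.104). The 6 points share their libraries, and the correlations are given as a description.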
